A study of Mus musculus with 24 samples.

Results

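The 9 genes described here, Msr1, Marco, Cd36, Trem2, Gpnmb, Cd68, Cd9, Spp1 and Mmp12, are used as marks of scavenging, lipid-laden macrophages, and they were chosen by name from the 56691 genes of the count table. Poly-specific scavenger receptors and TREM2 let a macrophage take up oxidised lipoproteins, lipid from dying cells and other debris. The cargo is broken down in lysosomes, where CD68 and GPNMB sit, and a macrophage that takes in more lipid than it can export becomes foamy. In endometriosis, uterine tissue grows outside the uterus, and macrophages are among the immune cells known to gather in such lesions. All 9 genes were found in the table on 1 line each, and all 9 passed the filter on low counts in the fit of 24 libraries. Marco did not pass it in the fit of the 16 uterine libraries.

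Bulk RNA sequencing covered 3 tissues at 2 times, in 6 groups of 4 libraries: the uterus of sham-operated mice, the uterus left in place in mice given endometriosis (eutopic uterus) and the lesions of such mice. Surgery was done at 8 weeks of age, tissue was taken 1 month or 3 months later on pregnancy day 3.5, and all mice were of a mixed C57BL/6 and SV129 background. Every group carried the Rosa26mTmG/+ reporter. By the labels, lesions were Pgrcre/+Rosa26mTmG/+ and both kinds of uterus Rosa26mTmG/+ alone. The series' design text instead assigns the Cre, driven from the progesterone receptor locus, to mice with endometriosis. As labelled, genotype and tissue cannot be told apart in comparisons with lesions. At 1 month sham mice and mice with endometriosis were labelled fertile. At 3 months sham mice were labelled fertile and mice with endometriosis subfertile, and mice at that time were also older. The libraries are not tied to single animals in the labels, so p-values measure the spread between these samples.

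Between 45133642 and 59407134 counts were deposited per library. Levels are given as CPM, counts scaled to a common library size with TMM factors, which correct for differences in RNA composition between libraries. Epithelium markers, 8 genes that the uterine lining expresses, summed to 723 to 1246 CPM in eutopic uterus and to 793 to 1036 CPM in 6 of the 8 lesion libraries, but far less in the 3-month lesions numbered 1 (140 CPM) and 2 (53.9 CPM). Ovarian steroidogenic markers reached 24343 CPM in lesion library 1 at 3 months, and 102 to 336 CPM in the other 3, where eutopic libraries held 17.7 to 22.1 CPM. Skeletal muscle markers reached 41697, 12912 and 6951 CPM in the 3-month lesion libraries 2, 3 and 4 (eutopic 111 to 172 CPM), and pancreas and liver markers 72987 CPM in lesion library 2 at 1 month. General macrophage markers, 16 genes that include Csf1r, Adgre1, Lyz2 and C1qa, summed to 2209 to 5735 CPM in lesions at 1 month, against 709 to 903 CPM in eutopic uterus. At 3 months the sum was 10185, 4831 and 11117 CPM for lesion libraries 2, 3 and 4, while lesion library 1 held 376 CPM, below the eutopic range of 606 to 1042 CPM. All 16 of these markers had counts in every lesion library.

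Promoter sequence was looked at because most of these genes moved together across the libraries. RefSeq entries on build GRCm38.p6 were found for 8 of the 9 genes. The 250 bases before each start were searched on both strands for GAGGAAGT, a form of the site of PU.1, the factor that drives macrophage genes. The same bases were searched for TGANTCA, a loose form of the site of AP-1 factors with any base at N. They were also searched for CACGTG, the core of the site through which TFEB and related factors drive lysosome genes, and for TCATGTG, a site of MITF, whose letters do not contain CACGTG. Matches stand in capitals. Shown are the windows of Cd68 and Spp1 and both annotated windows of Mmp12, the windows in which matches were found other than that of Trem2.
Cd68, chr11:69666171-69666420, reverse strand: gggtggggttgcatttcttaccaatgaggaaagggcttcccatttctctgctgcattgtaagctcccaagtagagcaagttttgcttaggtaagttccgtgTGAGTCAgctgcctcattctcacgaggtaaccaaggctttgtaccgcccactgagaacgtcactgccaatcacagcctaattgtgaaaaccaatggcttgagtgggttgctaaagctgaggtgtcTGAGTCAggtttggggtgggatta
Spp1, chr5:104434861-104435110, forward strand: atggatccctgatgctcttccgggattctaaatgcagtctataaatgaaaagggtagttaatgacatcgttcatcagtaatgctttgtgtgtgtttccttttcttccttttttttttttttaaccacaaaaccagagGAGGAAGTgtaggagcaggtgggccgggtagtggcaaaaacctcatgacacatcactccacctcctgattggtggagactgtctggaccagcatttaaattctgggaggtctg
Mmp12, chr9:7344147-7344396, forward strand: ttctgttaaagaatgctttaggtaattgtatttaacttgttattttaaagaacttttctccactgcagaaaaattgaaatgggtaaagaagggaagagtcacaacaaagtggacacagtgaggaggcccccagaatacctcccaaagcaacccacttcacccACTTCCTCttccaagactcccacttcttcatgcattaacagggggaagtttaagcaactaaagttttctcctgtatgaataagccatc
Mmp12, chr9:7347124-7347373, forward strand: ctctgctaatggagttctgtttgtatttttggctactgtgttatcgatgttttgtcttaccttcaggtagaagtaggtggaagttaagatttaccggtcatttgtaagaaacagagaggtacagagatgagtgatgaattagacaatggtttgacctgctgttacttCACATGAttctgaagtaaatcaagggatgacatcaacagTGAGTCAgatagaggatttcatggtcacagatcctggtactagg
Cd68 held TGAGTCA at 2 places, beginning 149 and 24 bases before its start. Spp1 held GAGGAAGT beginning 113 bases before its first start. Mmp12 held ACTTCCTC, which is GAGGAAGT on the other strand, 88 bases before its first start. Before its second start it held CACATGA, which is TCATGTG on the other strand, at 83 bases and TGAGTCA at 44 bases. Trem2 held TGAATCA 9 bases before its start. No match was found in the windows of Marco, Cd36, Gpnmb or Cd9 or in the second window of Spp1. Among all 32851 promoters of the same length, 2.44% held GAGGAAGT, 6.75% TGANTCA, 6.02% CACGTG and 3.25% TCATGTG. A match describes letters in a window and was not tested for binding.

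In lesions at 1 month 7 of the 9 genes rose against eutopic uterus, from 6.61-fold for Cd68 to 607-fold for Mmp12. Trem2 was higher in each lesion library but missed the threshold, and Cd9 was not called. A gene was called when its adjusted p in the edgeR quasi-likelihood test, fitted on all 24 libraries and 22249 genes, was under 0.05. By that rule 12.0% of all genes were called higher. In 8 of the 9 genes every lesion library lay above every eutopic library, which held for 17.5% of all genes. In bulk tissue, more macrophages and more RNA of a gene per macrophage cannot be told apart.

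Among the receptors, Msr1 (ENSMUSG00000025044.17), the class A scavenger receptor that binds acetylated and oxidised lipoproteins, was at 26.9, 75.6, 24.002 and 63.6 CPM in lesion libraries 1 to 4 and at 4.36, 4.49, 3.51 and 4.06 CPM in eutopic libraries 1 to 4 at 1 month. Lesion libraries 2 and 4 were the high ones, and the groups did not overlap. Msr1 rose by 3.53 ± 0.64 on the log2 scale (± SE here and for later fold changes, edgeR, adjusted p = 0.00154). Marco (ENSMUSG00000026390.8), a related receptor of resident macrophages that binds bacteria and particles, was at 6.54, 42.9, 2.74 and 7.44 CPM in lesion libraries 1 to 4. In eutopic uterus it was at 0, 0.0509, 0.0331 and 0.0335 CPM, from 7 counts in all 4 libraries together. Its log2 fold change of 8.87 ± 1.45 (edgeR, adjusted p = 0.000797) therefore rests on a very low reference, and lesion library 2, the one with pancreas and liver markers, stood far above the others. Without that library the log2 fold change was 7.44 ± 1.30 (adjusted p = 0.00258).

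Cd36 (ENSMUSG00000002944.16), a fatty acid translocase and receptor of oxidised lipoprotein, was at 160, 183, 80.5 and 203 CPM in lesion libraries 1 to 4 and at 21.7, 20.6, 23.8 and 8.77 CPM in eutopic libraries. Here library 1 was close to libraries 2 and 4, unlike for Msr1, and the groups did not overlap (log2 fold change 3.07 ± 0.70, edgeR, adjusted p = 0.00592). Cd36 is also made by adipocytes and by capillary endothelium. Adipocyte markers summed to 477, 114, 130 and 685 CPM in the same 4 lesion libraries, against 8.13 to 106 CPM in eutopic uterus. Of these 8 markers 0 were called by edgeR (median log2 difference 2.80), while DESeq2 called 1 and limma voom 7. Capillary endothelium markers summed to 678 to 856 CPM in lesions and 878 to 1040 CPM in eutopic uterus, and 0 of 8 rose and 3 fell. Of these 1 fell without lesion library 2, and 0 fell without eutopic library 3 or lesion library 4. The part of either cell type in the Cd36 level was not tested.

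Trem2 (ENSMUSG00000023992.15), a receptor of lipids and lipoproteins that sustains lipid-handling macrophages, was at 16.6, 49.1, 16.8 and 44.9 CPM in lesion libraries 1 to 4 and at 7.94, 12.8, 9.44 and 10.3 CPM in eutopic libraries. Libraries 2 and 4 were again the high ones, and libraries 1 and 3 lay just above the highest eutopic library. The log2 difference of 1.65 ± 0.60 had an adjusted p of 0.0545 in edgeR, so it was not called. It passed in DESeq2 (adjusted p = 0.0221), in limma voom (0.00207) and in edgeR on the compared groups alone (0.0108). It also passed without lesion library 1 (0.0453) or lesion library 3 (0.0468). Over the 14 alternatives tried its adjusted p ran from 0.00207 to 0.155.

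Of the lysosomal and surface marks, Gpnmb (ENSMUSG00000029816.11), a transmembrane glycoprotein of phagocytes under lysosomal load, was at 209, 796, 212 and 724 CPM in lesion libraries 1 to 4 and at 11.7, 11.4, 8.99 and 13.7 CPM in eutopic libraries. All lesion libraries lay far above the eutopic range, with libraries 2 and 4 highest, and the log2 fold change was 5.40 ± 0.94 (edgeR, adjusted p = 0.00116). Cd68 (ENSMUSG00000018774.14), the lysosomal glycoprotein used as a general macrophage stain, was at 57.9, 198, 56.6 and 171 CPM against 16.2, 21.9, 16.4 and 18.6 CPM in eutopic uterus. It split the lesion libraries into the same high and low pairs, and it rose by 2.73 ± 0.61 (adjusted p = 0.00534). The general macrophage markers split likewise, with a mean log2 CPM of 6.14, 7.25, 6.18 and 7.10 in lesion libraries 1 to 4. Cd9 (ENSMUSG00000030342.9), a tetraspanin found on lipid-laden macrophages and on epithelium, was at 247, 240, 264 and 250 CPM in lesions and at 212, 300, 298 and 323 CPM in eutopic uterus. The groups overlapped, and the log2 difference was -0.18 ± 0.34 (95% interval -0.88 to 0.53).

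Both secreted products rose. Spp1 (ENSMUSG00000029304.15), osteopontin, a matricellular ligand of integrins and CD44, was at 103, 376, 116 and 519 CPM in lesion libraries 1 to 4 and at 24.98, 22.4, 13.6 and 20.3 CPM in eutopic libraries. No values overlapped, and Spp1 rose by 3.78 ± 0.97 on the log2 scale (edgeR, adjusted p = 0.0108). Mmp12 (ENSMUSG00000049723.15), the macrophage metalloelastase, was at 118, 405, 169 and 346 CPM in lesions. In eutopic uterus it was at 0.228, 0.254, 0.911 and 0.302 CPM, so the gene was close to absent there. Its log2 fold change was 9.25 ± 1.45 (adjusted p = 0.000636), the largest of the 9.

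**Figure D1:**
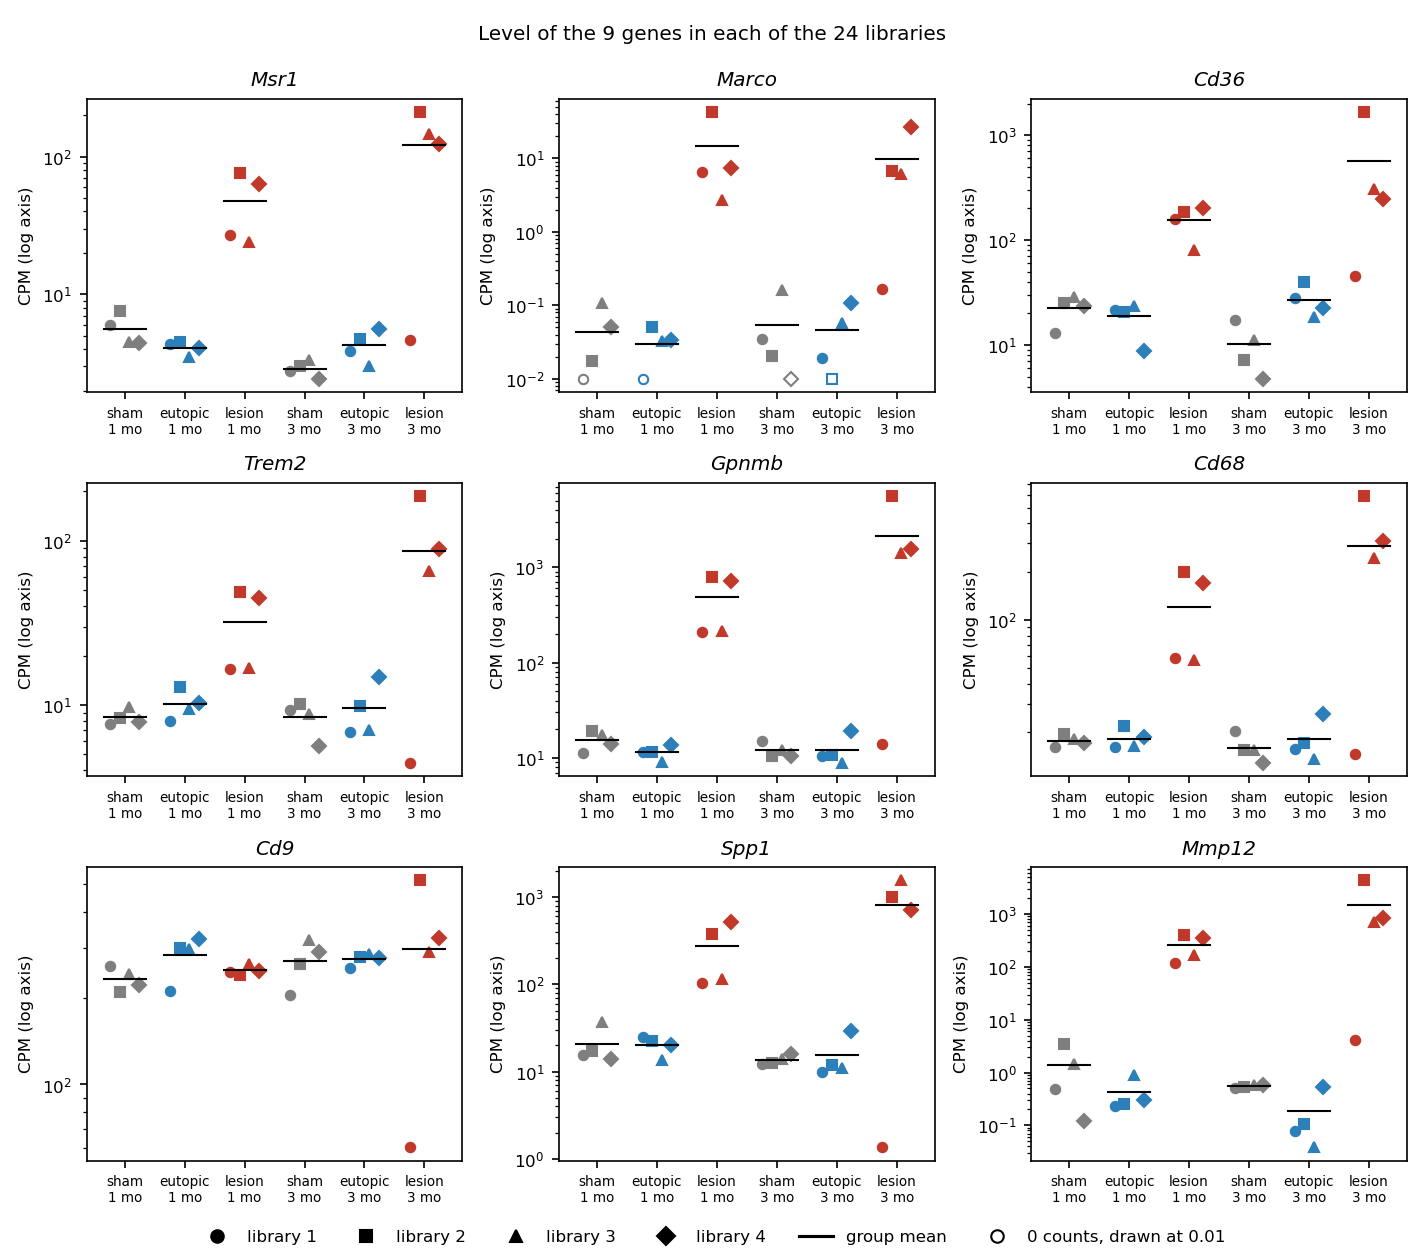
CPM of each gene (log axis) in each of the 24 libraries, by group, with symbols for library numbers and a black line at the group mean; open symbols are libraries with 0 counts, drawn at 0.01. Lesions lie above eutopic and sham uterus for 8 genes at 1 month, and lesion library 1 at 3 months lies far below the other lesion libraries of its time, for example at 14.2 CPM of Gpnmb where the others are at 1408 to 5566 CPM.

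At 3 months lesions split into 3 libraries in which the genes were very high and 1, lesion library 1, in which most were at the eutopic level or lower. The edgeR test over all 4 libraries called 8 of the 9 genes higher, all but Cd9, where 23.4% of all genes were called higher. In 3 genes, Marco, Cd36 and Mmp12, every lesion library lay above every eutopic library, as in 10.1% of all genes. Library 1 is the one with by far the most ovarian markers and with macrophage markers below the eutopic range. It shared low epithelium markers with library 2, and the part of its tissue makeup in these values was not tested.

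Msr1 was at 4.66, 211, 146 and 124 CPM in lesion libraries 1 to 4, against 3.85, 4.71, 2.99 and 5.58 CPM in eutopic libraries 1 to 4 at 3 months. The groups overlapped through library 1, and the log2 fold change was 4.82 ± 0.68 (edgeR, adjusted p = 3.13e-05). Marco was at 0.168, 6.64, 6.08 and 26.5 CPM in lesion libraries 1 to 4 and at 0.0193, 0, 0.0579 and 0.107 CPM in eutopic libraries. It was the receptor for which library 4, not library 2, was highest, and it rose by 7.63 ± 1.37 (adjusted p = 0.000261). Cd36 reached 1662 CPM in lesion library 2, against 45.6, 309 and 244 CPM in libraries 1, 3 and 4 and 27.9, 39.5, 18.4 and 22.4 CPM in eutopic libraries. It rose by 4.39 ± 0.75 (adjusted p = 0.000162). Lesion library 2 also carried 1275 CPM of adipocyte markers, against 54.5, 269 and 82.3 CPM in libraries 1, 3 and 4 and 5.17 to 73.1 CPM in eutopic uterus. Of 8 adipocyte markers 2 were called higher at 3 months, 5 without lesion library 1 and 0 without lesion library 2. Skeletal muscle markers ordered the 3-month lesion libraries as Cd36 did, from 41697 CPM in library 2 to 3.71 CPM in library 1. Whether adipocytes or muscle contributed to the Cd36 levels was not tested. Without library 2 the log2 fold change of Cd36 was 2.89 ± 0.53 (edgeR, adjusted p = 0.000465). Trem2 was at 4.44, 187, 65.1 and 89.4 CPM in lesion libraries 1 to 4, against 6.82, 9.82, 7.01 and 14.8 CPM in eutopic libraries. Library 1 lay below every eutopic library while the other 3 lay above them all, and the gene was called higher by 3.17 ± 0.63 (adjusted p = 0.000631).

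Gpnmb was at 14.2, 5566, 1408 and 1557 CPM in lesion libraries 1 to 4 at 3 months and at 10.4, 10.6, 8.86 and 19.0 CPM in eutopic libraries, and rose by 7.45 ± 1.03 on the log2 scale (edgeR, adjusted p = 2.76e-05). Cd68 was at 14.5, 591, 243 and 310 CPM against 15.7, 17.3, 13.6 and 25.9 CPM, and it rose by 3.998 ± 0.65 (adjusted p = 0.000111). For both genes library 1 lay inside the eutopic range and library 2 was the highest. Cd9 was at 60.4, 517, 291 and 326 CPM in lesions and at 255, 280, 286 and 277 CPM in eutopic uterus. Library 1 lay far below and libraries 2, 3 and 4 lay above all eutopic libraries, so the log2 difference over 4 libraries was 0.12 ± 0.34 (95% interval -0.58 to 0.83). Without lesion library 1, Cd9 was called higher by 0.46 ± 0.17 (edgeR, adjusted p = 0.0312), and without lesion library 2 its sign turned, to -0.28. Lesion libraries 1 and 2, lowest and highest in Cd9, were both low in epithelium markers (140 and 53.9 CPM), whose part in the Cd9 level was not tested.

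Spp1 was at 1.37, 997, 1553 and 708 CPM in lesion libraries 1 to 4 and at 9.81, 11.9, 11.1 and 29.1 CPM in eutopic libraries. Its lowest value of the 24 libraries was thus in a lesion, and among the lesions library 3, not library 2, held the most. The log2 fold change was 5.72 ± 1.06 (edgeR, adjusted p = 0.000338). Mmp12 was at 4.06, 4353, 707 and 850 CPM in lesions and at 0.0771, 0.104, 0.0386 and 0.533 CPM in eutopic uterus, from 41 counts in all 4 eutopic libraries. Even library 1 lay above all eutopic libraries, and the log2 fold change was 12.89 ± 1.67 (adjusted p = 1.54e-05). Without lesion library 1, all 9 genes were called higher, against 25.1% of all genes, with log2 fold changes from 0.46 for Cd9 to 13.29 ± 1.18 for Mmp12.

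**Figure D2:**
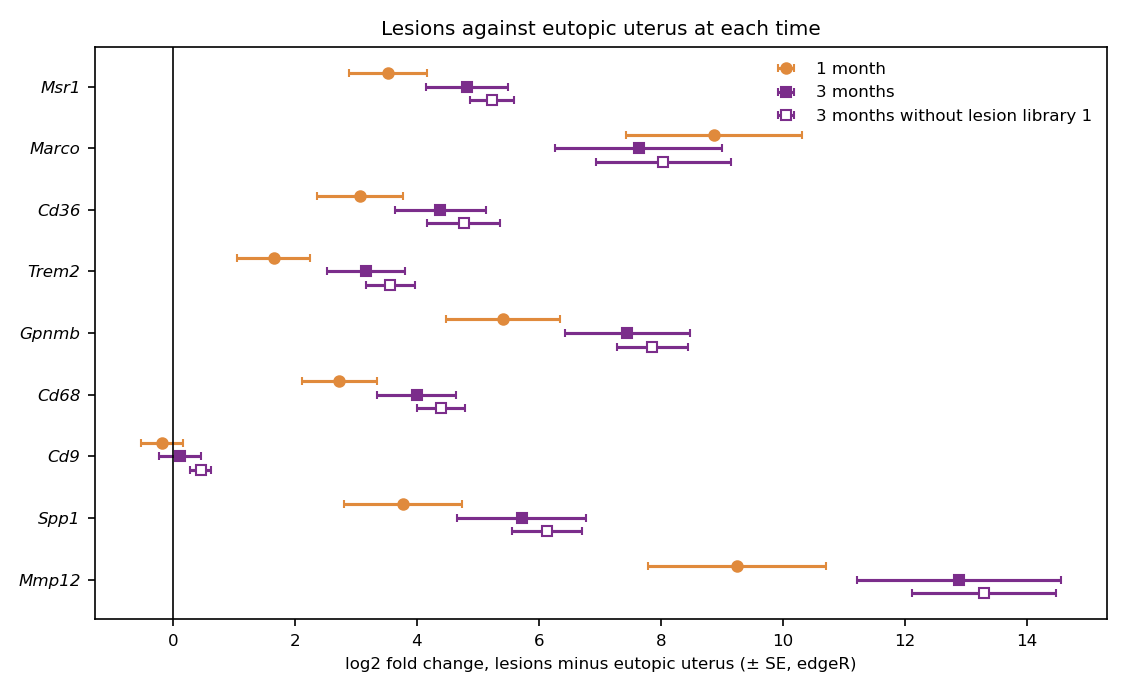
Log2 fold change of each gene in lesions against eutopic uterus (± SE, edgeR) at 1 month (circles), at 3 months (filled squares) and at 3 months without lesion library 1 (open squares). Cd9 lies near 0 at both times, the other 8 genes lie above 0, and leaving out lesion library 1 narrows the error, for example of Gpnmb from 7.45 ± 1.03 to 7.86 ± 0.59.

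The next comparison asked whether lesions of both ages differed. With all 4 libraries a group, 0 of the 9 were called between lesions at 3 months and at 1 month, where 10.9% of all genes were called either way. By unadjusted p, 6 of the 9 were under 0.05, as were 5768 of all 22249 genes. The smallest adjusted p was that of Cd36 (log2 difference 1.85 ± 0.67, edgeR, adjusted p = 0.0791). DESeq2 called Cd36 (adjusted p = 0.0274) and Gpnmb (0.0301), and limma voom called Msr1 (0.0148) and Trem2 (0.0477). The number at an unadjusted p under 0.05 was 0 in a fit of the compared groups alone and without lesion library 2 at 3 months, and 2 without lesion library 1 or 3 at 1 month. Leaving out lesion library 1 at 3 months was the only removal of a single library that gave any call. Without it, 8 of the 9 genes were called higher at 3 months, against 9.10% of all genes. Among them Gpnmb differed by 2.54 ± 0.47 (edgeR, adjusted p = 0.00126), Msr1 by 1.75 ± 0.32 (0.00103), Mmp12 by 2.92 ± 0.76 (0.0128), Trem2 by 1.83 ± 0.38 (0.00319) and Cd9 by 0.59 ± 0.17 (0.0218). Marco was the exception, with -0.19 ± 0.79, and over all 4 libraries with -0.60 ± 0.96, a sign that turned to 0.83 without lesion library 2 at 1 month. When lesion library 2 was left out as well, Gpnmb, Msr1, Spp1 and Trem2 were still called, with log2 differences of 1.60, 1.49, 2.02 and 1.27.

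The change of the lesion-eutopic difference from 1 to 3 months was also tested directly, on the same lesion libraries as the comparison above. It was called for 0 of the 9 genes, against 0.769% of all genes, with 1 gene, Mmp12, at an unadjusted p under 0.05 (3.64 ± 1.69, edgeR, adjusted p = 0.317). Of all 22249 genes 3297 had an unadjusted p under 0.05 in edgeR. DESeq2 and limma voom also called 0, with 2 and 5 genes at an unadjusted p under 0.05. Without lesion library 1 at 3 months it was called for 3 genes, Msr1 (1.70 ± 0.44, adjusted p = 0.0352), Gpnmb (2.46 ± 0.64, 0.0353) and Trem2 (1.92 ± 0.52, 0.0451), where 2.47% of all genes were called higher.

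In the uterus itself, none of the 9 genes was called between mice with endometriosis and sham mice, Marco being untested there. At 1 month edgeR called 0 of the 8 genes it tested, where 0.00943% of 21208 genes were called. An unadjusted p under 0.05 was met in 1020 of the 21208 genes and in 1 of the 8. It was Msr1, at 4.36, 4.49, 3.51 and 4.06 CPM in eutopic libraries against 6.01, 7.63, 4.52 and 4.43 CPM in sham, a log2 difference of -0.46 ± 0.21 (adjusted p = 0.876). Gpnmb was at 9.0 to 13.7 CPM in eutopic and 11.4 to 19.1 CPM in sham uterus, and Cd68 at 16.2 to 21.9 and 16.2 to 19.5 CPM. Trem2 was at 7.94 to 12.8 CPM in eutopic and 7.64 to 9.67 CPM in sham uterus, and Cd9 at 212 to 323 and 209.7 to 259 CPM. Spp1 was at 13.6 to 24.98 CPM in eutopic and 14.1 to 36.8 CPM in sham uterus. Mmp12 was low in both, at 0.228 to 0.911 CPM in eutopic and 0.118 to 3.54 CPM in sham uterus. At 3 months edgeR again called 0 of 8, where 0% of genes were called. An unadjusted p under 0.05 was met in 1012 of the 21208 genes and in 2 of the 8. Cd36 was at 27.9, 39.5, 18.4 and 22.4 CPM in eutopic and at 17.4, 7.18, 11.1 and 4.77 CPM in sham libraries, and the groups did not overlap. Its log2 difference of 1.41 ± 0.39 (95% interval 0.59 to 2.23) had an unadjusted p of 0.00215 and an adjusted p of 0.992 in edgeR. Adipocyte markers summed to 69.1, 18.9, 73.1 and 5.17 CPM in these eutopic libraries and to 57.2, 8.45, 19.0 and 11.5 CPM in sham. Of the 8 markers 0 were called, with a median log2 difference of 1.05 where that of all genes was -0.01, and their part in the Cd36 level was not tested. Msr1 was the other, with 0.57 ± 0.22 and an adjusted p of 0.992. DESeq2 and limma voom also called 0 of the 8 in either comparison, with 2 and 1 at an unadjusted p under 0.05 at 1 month and 2 each at 3 months. Marco was at 0 to 0.1597 CPM in all 16 uterine libraries.

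Levels between genes were compared per kilobase of exon, with lengths from GENCODE M21, which may differ from the annotation used for counting. In eutopic uterus at 1 month Cd9 led at 138.5 ± 23.7 CPM per kb (SD, n = 4), ahead of Cd68 at 14.5 ± 2.11 and Spp1 at 12.3 ± 2.96, which did not differ beyond their spread. Cd36 followed at 5.21 ± 1.88, then Trem2 at 2.05 ± 0.41 and Gpnmb at 1.76 ± 0.30, again within their spread, then Msr1 at 0.647 ± 0.0690, Mmp12 at 0.0585 ± 0.0451 and Marco at 0.0153 ± 0.0110. In lesions at 1 month Spp1 (169 ± 124), Cd9 (122 ± 4.74), Cd68 (96.2 ± 59.2) and Gpnmb (74.5 ± 48.9) had the highest means, with overlapping spreads. The spread is between libraries and does not give the order within a library. Within each lesion library at 1 month Spp1 lay above Cd68, and Cd68 above Gpnmb. Marco (7.75 ± 9.76), Msr1 (7.495 ± 4.095) and Trem2 (6.44 ± 3.55) had the lowest means. Their spreads overlapped too, though Msr1 lay above Trem2 within each library. In lesions at 3 months Spp1 (494.6 ± 391.9) and Gpnmb (328 ± 367) had the highest means, with errors close to or above the means.

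Since the general macrophage markers were higher in most lesions, each gene was also set against them within each library, as its log2 CPM minus the mean log2 CPM of the 16 markers. The mean of the markers was 4.91 ± 0.18 in eutopic uterus and 6.67 ± 0.59 in lesions at 1 month (SD, n = 4), and 4.80 ± 0.33 and 6.56 ± 1.98 at 3 months. On this scale 7 of the 9 genes lay higher in every lesion library than in every eutopic library at 1 month, which held for 1.98% of all genes. They were Msr1, Marco, Cd36, Gpnmb, Cd68, Spp1 and Mmp12. Mmp12 moved from -6.24 ± 1.01 to 1.18 ± 0.30, Gpnmb from -1.40 ± 0.21 to 1.98 ± 0.48, and Msr1 from -2.86 ± 0.03 to -1.27 ± 0.27. Cd68 moved least of the 7, from -0.72 ± 0.17 to 0.01 ± 0.39. Trem2 lay at -1.58 ± 0.28 in eutopic uterus and -1.86 ± 0.27 in lesions, and the groups overlapped. Cd9 lay lower in every lesion library (3.22 ± 0.36 and 1.30 ± 0.63). Its CPM overlapped between the groups (log2 difference -0.18), so its relative fall came with the higher markers. As given above, Cd36 and Cd9 are also made by other cell types, whose part in these values was not tested.

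At 3 months 5 of the 9 genes, Msr1, Marco, Gpnmb, Cd68 and Mmp12, lay higher in every lesion library relative to the markers, against 1.58% of all genes. This included lesion library 1, where Gpnmb lay at 0.15, above every eutopic library, and Mmp12 at -1.64, where the highest eutopic value was -6.06. The mean of the markers in that library was 3.67, below every eutopic library (4.47 to 5.25). The CPM of Gpnmb, Cd68 and Msr1 there lay within the eutopic range, so their relative rise came with the lower markers. Marco there rested on 9 counts. Spp1 in that library lay at -3.19, below the eutopic range of -1.35 to -0.38, while libraries 2, 3 and 4 lay at 2.43, 3.63 and 1.39. Trem2 overlapped again (-1.60 ± 0.22 in eutopic uterus and -1.01 ± 0.74 in lesions). Relative Gpnmb and Mmp12 were highest in lesion library 2, at 4.91 and 4.56, although the markers themselves were highest in library 4.

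**Figure D3:**
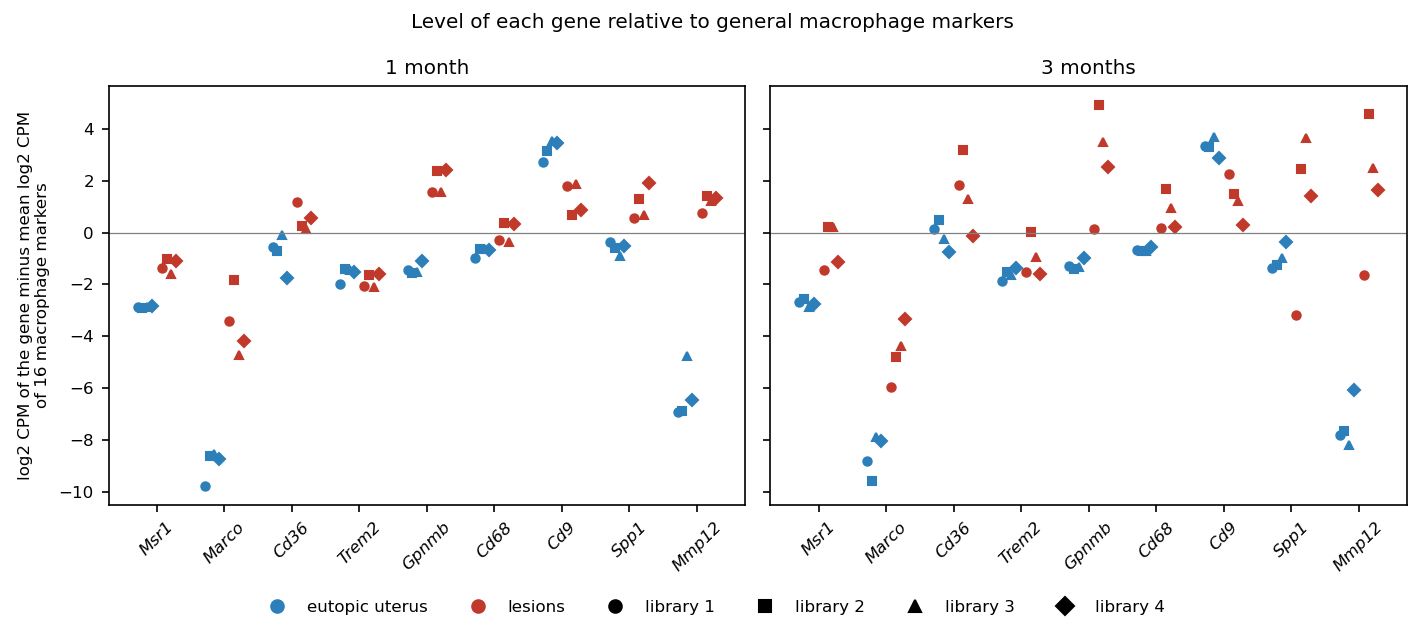
Log2 CPM of each gene minus the mean log2 CPM of 16 general macrophage markers (vertical axis) in eutopic uterus (blue) and lesions (red) at 1 month (left) and 3 months (right), with symbols for library numbers. Marco, Gpnmb, Msr1, Cd68 and Mmp12 lie above the eutopic libraries in all 8 lesion libraries, and Trem2 overlaps at both times. Cd9, whose CPM overlapped between the groups, lies below. In lesion library 1 at 3 months the markers themselves were below every eutopic library, while the CPM of Gpnmb, Cd68 and Msr1 was within the eutopic range.

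Related genes were counted from lists chosen by function. Of 14 other scavenger receptors tested, 6 rose and 1 fell in lesions at 1 month, and 11 rose and 1 fell at 3 months. Their median log2 fold change was 0.59 and 1.81, where the median over all genes was -0.01 and 0.04. The summed list was highest in lesion library 1 at 3 months (3738 CPM), the library lowest in macrophage markers and highest in ovarian markers (24343 CPM). The other lesion libraries of that time were at 1865 to 3588 CPM. The part of other tissues in these sums was not tested. At 3 months 9 of these receptors rose without lesion library 1 and 8 without lesion libraries 1 and 2. Counts from the fit of all 24 libraries, here and below, stand beside the 12.0% of all genes called higher at 1 month and the 23.4% at 3 months. Without lesion library 1 at 3 months that share was 25.1%. Clec7a, the dectin-1 receptor of fungal glucans, rose from 13.6 ± 2.53 to 155 ± 101.2 CPM at 1 month (SD, n = 4, log2 fold change 3.51 ± 0.71, edgeR, adjusted p = 0.00303). Cd5l, a secreted macrophage protein, rose by 4.76 ± 1.07 (adjusted p = 0.00533) and Cd163, the haptoglobin-hemoglobin receptor, by 2.80 (0.00640). Scara5, a ferritin receptor of stromal cells that was chosen after its values were seen, fell by 1.51 at 1 month and by 2.12 at 3 months, and its call at 1 month was lost without eutopic library 1 or 2 or lesion library 2, 3 or 4.

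Of 12 TREM2 signalling partners, 9 rose and 0 fell at 1 month and 11 rose and 0 fell at 3 months, with median log2 fold changes of 1.53 and 1.89. Syk, the kinase recruited by the TREM2 adaptor, rose from 27.0 ± 3.85 to 119 ± 43.2 CPM at 1 month (SD, n = 4, log2 fold change 2.14, edgeR, adjusted p = 0.00353). Pik3cd, a leukocyte PI3-kinase subunit, rose by 1.52 (0.00376) and Adam17, a protease that can shed TREM2, by 0.61 (0.00569). Tyrobp, the adaptor DAP12, chosen after its values were seen, rose from 21.9 ± 2.30 to 77.2 ± 35.4 CPM (1.82, adjusted p = 0.0245). Its call at 1 month was lost without any 1 of eutopic libraries 1 to 4 or lesion libraries 2 and 4 (adjusted p up to 0.0743). At 3 months Tyrobp rose by 2.701 ± 0.57.

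Of 17 genes of lipid uptake, storage and efflux, 7 rose and 0 fell at 1 month (median 0.74), and 17 rose and 0 fell at 3 months (median 1.65). Fabp5, a fatty acid chaperone, rose from 9.62 ± 3.77 to 66.7 ± 50.1 CPM at 1 month (SD, n = 4, log2 fold change 2.79, edgeR, adjusted p = 0.00313) and reached 175 CPM on average at 3 months (3.97 ± 0.60). Pparg, the nuclear receptor that induces Cd36, rose by 1.72 (0.00562), Lpl, lipoprotein lipase, by 2.44 (0.00833), and Abcg1, a cholesterol exporter, by 1.62 (0.0112). Several of these are adipocyte genes too, and adipocyte markers were highest in lesion library 2 at 3 months, as given above. The summed list was also at 3793 CPM in lesion library 1 at 3 months, against 1712 to 1956 CPM in eutopic uterus. That library had the most ovarian markers and the fewest adipocyte (54.5 CPM) and macrophage markers of the 3-month lesions. The part of other tissues in the counts of this list was not tested. At 1 month 4 lipid genes rose without eutopic library 4, lesion library 2 or lesion library 4. At 3 months the count was again 17 without lesion library 1 and 13 without lesion libraries 1 and 2.

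Lysosome genes showed a like pattern. Of 20, 12 rose and 0 fell at 1 month (median 0.75), and 5 rose without lesion library 2 or lesion library 4. At 3 months 18 rose and 0 fell (median 1.59). Atp6v0d2, a proton pump subunit of macrophages and osteoclasts, went from 1.18 ± 0.24 to 43.4 ± 26.2 CPM at 1 month (SD, n = 4, log2 fold change 5.20, edgeR, adjusted p = 0.000475) and to 169 ± 188 CPM at 3 months. Ctss, cathepsin S, rose by 3.15 (adjusted p = 0.00562), Lgals3, a galectin that marks damaged lysosomes, by 2.95 (0.00562), and Acp5, an acid phosphatase, by 2.49 (0.00524). Lamp2, a structural protein of every lysosome, was not called at either time (0.03 and -0.06).

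Of 10 osteopontin receptors, 6 rose and 0 fell at each time (medians 0.78 and 1.11), and the integrin subunit Itgb5 had the smallest adjusted p at 1 month (0.74, edgeR, adjusted p = 0.00152). Changes were larger for the integrin subunits Itga4 (2.42, adjusted p = 0.00439) and Itga8 (1.65, 0.00657). Among 11 CD9 partners, 2 rose at 1 month, the leukocyte tetraspanins Cd53 (2.40, adjusted p = 0.00581) and Cd37 (2.39, 0.0125), a share near that of all genes, and 4 rose without lesion library 1. At 3 months 7 rose, and the list's medians were 0.40 and 0.52. Of 12 elastolytic proteases and inhibitors tested, 6 rose at 1 month, among them Timp1, an inhibitor of metalloproteases (1.08, adjusted p = 0.00512), and 3 rose without eutopic library 2 or 4. At 3 months 5 rose, and 9 did without lesion library 1. None of these 3 lists had a member that fell. At 3 months 1 CD9 partner fell without lesion library 1.

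Counts of several lists also moved with the fit. At 1 month 12 lipid genes and 5 CD9 partners rose in a fit of the compared groups alone, and 14 and 4 with limma voom. Calls over all genes moved too, from 4607 to 10013 with limma voom. At 3 months the fit of the compared groups alone called fewer, namely 7 lipid genes, 4 TREM2 partners, 2 osteopontin receptors, 3 CD9 partners, 3 elastolytic genes, 6 general macrophage markers and 2 large peritoneal macrophage markers. Fewer of all genes were called in that fit as well. The shares of 12.0% and 23.4% do not apply to these other fits.

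**Figure D4:**
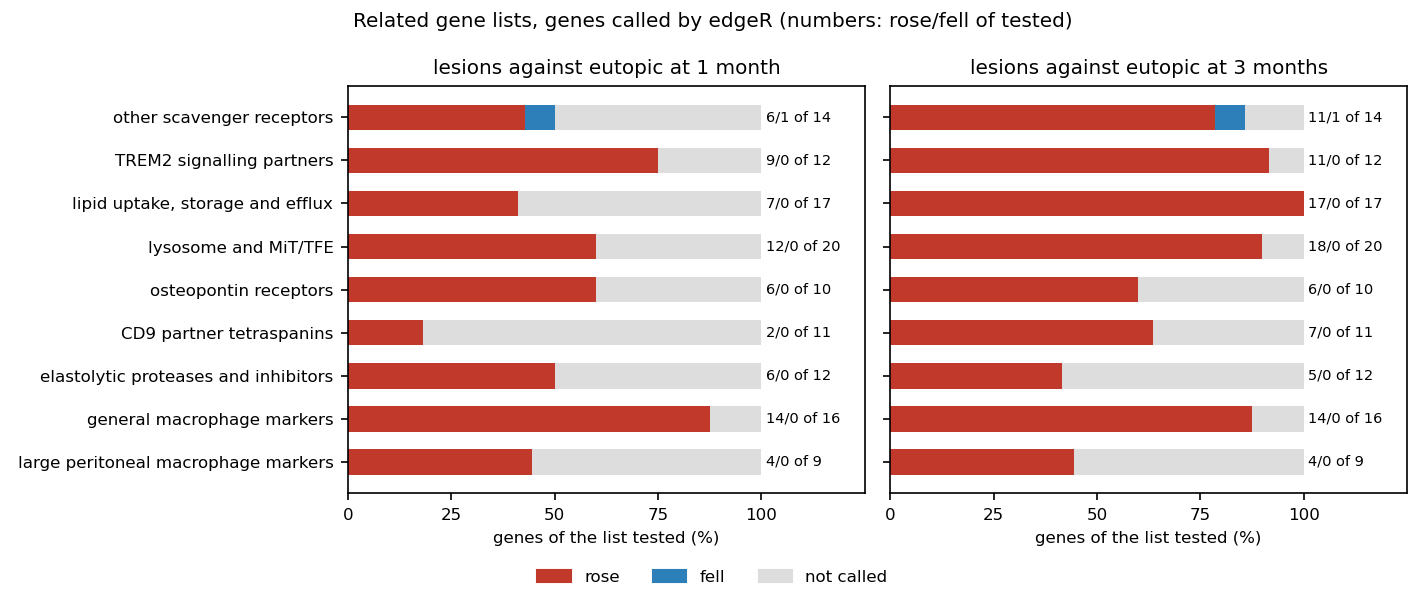
Share of the tested genes of each related list (horizontal axis, percent) that rose, fell or were not called in lesions against eutopic uterus at 1 month (left) and 3 months (right), with the counts beside each bar. The lipid list goes from 7 of 17 to 17 of 17 genes and the lysosome list from 12 of 20 to 18 of 20, while the macrophage markers are at 14 of 16 both times.

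Of the 16 general macrophage markers 14 rose and 0 fell at both times (medians 2.03 and 2.67), and 9 rose at 1 month without eutopic library 2, 3 or 4 or lesion library 2 or 4. Lyz2, lysozyme, rose from 229 ± 38.5 to 1865 ± 1094 CPM at 1 month (SD, n = 4, edgeR, adjusted p = 0.00636). Cd14 was not called at either time (0.01 and 0.34). Markers of large peritoneal macrophages, the cells of the surrounding body cavity, rose for 4 of 9 genes at both times. Vsig4, a complement receptor, was at 0.0166 ± 0.0234 CPM in eutopic uterus and 2.05 ± 1.08 CPM in lesions at 1 month, and Timd4, a receptor for dying cells, at 0.340 ± 0.327 and 7.95 ± 4.39 CPM. Gata6, the factor that defines these cells, was not called at 1 month (0.21 ± 0.36) and rose by 1.01 ± 0.36 at 3 months (edgeR, adjusted p = 0.0307). The summed list was at 432 to 645 CPM in lesions, 342 to 433 CPM in eutopic and 344 to 683 CPM in sham uterus at 1 month. At 3 months it was at 317 to 674 CPM in lesions, 362 to 453 CPM in eutopic and 343 to 602 CPM in sham uterus, so the groups overlapped. At 2.05 and 7.95 CPM in lesions at 1 month, Vsig4 and Timd4 were small parts of the sum, which therefore says little of them. The part of large peritoneal macrophages in the levels of the 9 genes was not tested.

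Across the 24 libraries the genes other than Cd9 correlated with each other at 0.814 (Cd36 with Spp1) to 0.99005 (Gpnmb with Cd68). Correlations are given as a description, since the libraries share tissues and groups. Pearson's r of log2 CPM between Gpnmb and Msr1 was 0.988, between Gpnmb and Mmp12 0.966 and between Marco and Trem2 0.850, while Cd9 reached 0.522 with Spp1 and 0.179 with Marco. Within the 8 lesion libraries, with the mean of each time removed, Marco correlated with Cd36 at 0.649 and Cd9 correlated with Mmp12 at 0.977 and with Gpnmb at 0.953, values that lesion library 1 at 3 months, low for all of them, takes part in. Among 13188 genes of sufficient level the 3 most like each gene were also listed. For Gpnmb they were Cd68, Tlr13 and Slc15a3 (r = 0.988 to 0.99005), for Cd68 Arl11, Cd84 and Cd300a (0.992 to 0.993), for Msr1 Fcgr2b, Gpnmb and Tlr13 (0.984 to 0.9896) and for Trem2 Cd84, Lat2 and Csf2ra (0.981 to 0.985). For Mmp12 they were Atp6v0d2, Gpnmb and Ltbp2 (0.965 to 0.976), for Spp1 Clec5a, Itgam and Ccl6 (0.968 to 0.972) and for Marco Trpm2, Pilra and Cd22 (0.959 to 0.961). Cd36 had Cebpa, Tm6sf1 and Snap29 (0.948 to 0.952), and Cd9 had Cd14, Anxa1 and Slc22a4 (0.915 to 0.941).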

How the data were processed

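Bulk RNA-seq of 24 mouse libraries was analysed from the deposited table of raw counts per gene, which the authors made with bcl2fastq 1.9.0, STAR 2.7.9a and build mm39, per the submitters' processing notes. Which counter, annotation and strand option were used is not given in the sources used here. Reads of overlapping genes can therefore not be assigned further. Columns were matched to libraries by name.

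Groups were compared with edgeR 4.0.16 (R 4.3.3): TMM scaling, filterByExpr, quasi-likelihood test and Benjamini-Hochberg adjustment over all genes tested, with an adjusted p under 0.05 called. Comparisons with lesions came from a fit of 24 libraries (22249 genes), and eutopic against sham uterus from the 16 uterine libraries (21208 genes). A standard error is the log2 change over the square root of the F statistic, and 95% intervals use the t distribution of that test. The fit was tested on simulated data. Log2 CPM used a prior count of 2.

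Of 173 genes in 15 lists 172 were found, and Cd163l1 is not analysed here. The members and the lists were chosen with earlier results of these data known. Named were all 9 members, up to 4 genes per list with the smallest adjusted p in lesions at 1 month, and the 3 genes most correlated with each member among those with a mean log2 CPM of at least 1. Scara5, Tyrobp, Lamp2, Cd14 and Gata6 were chosen after their values were seen. One gene that the rule names is not reported here. Exon lengths came from GENCODE M21. Promoters came from RefSeq on GRCm38.p6, another build than that of the counts. Alternatives were DESeq2 1.42.0, its size factors in edgeR, no filter, limma 3.58.1 voom with sample weights, a fit of the compared groups alone, a replicate block and leaving out libraries.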

Additional observations from a re-analysis of the deposited data

Results flagged for a closer look

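In 6 of the 54 groups of 4 libraries (9 genes in 6 groups) 1 library stood apart from the other 3, by the gap to its nearest neighbour over the range of the group. Chance gives about 1 in 20 groups only where values are normally distributed and the groups are independent. These groups share libraries and correlated genes, and each library that stood apart was the highest of its group. The number that stood apart is therefore not read as an excess. Marco was at 42.9 CPM in lesion library 2 at 1 month, where the others were at 2.74 to 7.44 CPM. Cd36 was at 1662 CPM in lesion library 2 at 3 months (others 45.6 to 309 CPM). Spp1 was at 36.8 CPM in sham library 3 at 1 month (others 14.1 to 17.5 CPM) and at 29.1 CPM in eutopic library 4 at 3 months (others 9.81 to 11.9 CPM). Mmp12 was at 0.911 CPM in eutopic library 3 at 1 month (others 0.228 to 0.302 CPM) and at 0.533 CPM in eutopic library 4 at 3 months (others 0.0386 to 0.104 CPM). Eutopic library 4 at 3 months was also the highest of its group for Msr1, Marco, Trem2, Gpnmb, Cd68 and the summed macrophage markers (1042 CPM).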

How the results depend on the processing

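Of 841 values of the 9 genes under alternatives, 781 kept their direction and their side of the threshold, 7 lost the call, 26 gained it and 27 changed sign. The causes were not tested. Of 1013 values of named list genes 946 were kept and 67 lost the call.

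In lesions against eutopic uterus at 1 month 4607 genes were called, 10013 with limma voom and 2595 to 4705 with 1 library left out. At 3 months 9013 were called and 3267 with the compared groups alone. For Cd9 at 3 months, leaving out 1 library gave -0.28 to 0.46. Between eutopic and sham uterus 2 genes were called at 1 month (DESeq2 14, limma voom 39) and 0 at 3 months (DESeq2 11, limma voom 4, compared groups alone 2). Between lesions of both times 2435 genes were called, 1010 with limma voom, 0 with the compared groups alone, 1573 without lesion libraries 1 and 2 at 3 months and 1164 to 3850 with 1 library left out. Of the 9 genes, DESeq2 and limma voom called 2 each there, and 4 were called without lesion libraries 1 and 2. With 1 library left out 0 to 8 were called. The change of the lesion difference between times was called for 171 genes, 822 with DESeq2, 468 with limma voom, 10 with the compared groups alone, 274 without lesion libraries 1 and 2 and 14 to 990 with 1 library left out, and for 0 to 3 of the 9 genes with 1 library left out.

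Signs also changed in the following. In eutopic against sham uterus at 1 month, limma voom gave Spp1 0.10 and Mmp12 0.22. Leaving out 1 library gave -0.052 to 0.10 for Cd68 and -0.19 to 0.37 for Spp1. At 3 months limma voom gave Trem2 -0.049, Gpnmb -0.052 and Cd9 -0.011. Leaving out 1 library gave -0.10 to 0.32 for Trem2, -0.28 to 0.14 for Gpnmb, -0.049 to 0.31 for Cd68, -0.085 to 0.12 for Cd9 and -0.32 to 0.35 for Spp1. Between lesions of both times Marco was 0.087 with limma voom and 0.12 without lesion libraries 1 and 2 at 3 months. Leaving out 1 library gave -1.80 to 0.83 for Marco and -0.14 to 0.59 for Cd9. For the change between times it gave -2.42 to 0.20 for Marco, -0.17 to 1.71 for Cd36 and -0.087 to 0.65 for Cd9.

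The labels do not say whether a shared replicate number marks a shared animal, and not every pair correlated enough to take the numbers as pairs: same-numbered libraries correlated over 0.1 in 3, 2, 0, 1 and 3 of 4 pairs in the 5 comparisons of groups. With the replicate block, 608 genes were called in lesions against eutopic uterus at 3 months. Of the 9 genes 8 were tested there, Marco not passing the filter. Among these 8, 0 were called and 6 had an unadjusted p under 0.05 in edgeR. Of the related lists there, 0 other scavenger receptors, TREM2 partners, CD9 partners and large peritoneal macrophage markers rose, and 1 gene each of the lipid, lysosome, osteopontin receptor, elastolytic and general macrophage lists. The block left 0 genes called between lesions of both times and 6 for the change between times. It gave Cd9 -0.18 at 3 months and -0.066 between lesions of both times, Spp1 0.062 in eutopic against sham uterus at 1 month and Gpnmb -0.041 at 3 months.

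Depth limits Marco and Mmp12 in the uterus, where few counts set the reference.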
